A study of Homo sapiens with 12 samples.

Results

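The addition of resveratrol (RSV) to TCDD was followed in 501Mel cells, an established human melanoma cell line. The comparison holds 4 of the 12 libraries sequenced in the study, 2 of cells given 5 μM RSV together with TCDD (RSV+TCDD) and 2 of cells given TCDD alone. Which libraries belong to it follows from the sample titles and not from any measured value. All cells were exposed for 48 h in one culture medium, and no gene was modified. TCDD was given at 10 nM in the TCDD group. For RSV+TCDD the treatment protocol and the methods state 10 nM, whereas the label of these libraries states 1 nM, and a difference in TCDD dose cannot be told apart from the effect of RSV if that label is right. The 2 RSV and 2 vehicle (DMSO) libraries of the same set served as a reference for what RSV did without TCDD. The line is a single cell line in culture, and nothing states whether both libraries of a group came from separate cultures, so that the p-values measure the spread between these libraries, which may be technical.

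The aryl hydrocarbon receptor (AhR) is a transcription factor that is held in the cytosol by HSP90 and its partners. When a ligand such as the dioxin TCDD binds, AhR moves into the nucleus, pairs with ARNT and binds xenobiotic response elements, and detoxifying enzymes such as CYP1A1 are transcribed. Resveratrol is a plant stilbene that is widely used as an AhR antagonist, and it also acts on other proteins, among them sirtuins and several kinases. Cells of the melanocyte lineage depend on MITF, which drives pigment enzymes and many survival genes. The comparison asks what RSV changes in cells that carry an AhR agonist, and the results are given by pathway.

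Reads counted on genes numbered 23271945 and 14338839 in the TCDD libraries and 18818133 and 20448379 in the RSV+TCDD libraries. RNA integrity was 9.3 and 9.2 with TCDD and 9.1 and 9.2 with RSV+TCDD. Melanocyte markers (MITF, SOX10, PMEL, MLANA, TYR, DCT) summed to between 14401 and 20288 CPM, the count scaled to a common library size, the keratinocyte markers KRT5 and KRT14 and the markers CD3E and PECAM1 were at 0, and the fibroblast markers COL1A1, COL3A1 and DCN summed to 0.993 and 0.809 CPM with TCDD and to 3.14 and 2.45 CPM with RSV+TCDD. The epithelial marker EPCAM was at or below 0.188 CPM, VWF at or below 0.710 CPM and PTPRC at or below 0.0735 CPM. TMM factors were used for this scaling. Calls rest on an edgeR quasi-likelihood fit, with a Benjamini-Hochberg adjusted p below 0.05 over 16080 tested genes. There were 2 libraries in each group throughout, too few for an exact permutation of 1 gene to reach that limit, and the p-values therefore depend on the fit.

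RSV changed 6057 of the 16080 tested genes in TCDD-treated cells, of which 2989 were higher (18.6%) and 3068 lower (19.1%). Among them 1029 rose and 508 fell by at least 1 on the log2 scale, and the median log2 fold change was 0.71 for the genes called higher and -0.57 for those called lower. Without TCDD replicate 1 the counts were 1672 and 1854. The ERCC spike-ins, control RNAs added to each sample, held 0.0401% and 0.0457% of the counts with TCDD and 0.0630% and 0.0936% with RSV+TCDD. Scaling to the spike-ins shifted the median log2 fold change over all genes by -0.70 and left 160 genes called higher and 1752 lower, and 1421 of the 2989 genes called higher then had a log2 fold change below 0. All changes below are therefore changes relative to the median of all genes, and whether RNA per cell fell was not tested. Words such as rose and fell are meant in that sense. The genes were read in 39 lists with 1103 different genes, 1018 of which passed the filter on low counts. Of the 39 lists, 23 had a median log2 fold change above 0 and 16 below, beside -0.01 for all tested genes. All 39 kept their direction relative to all genes under spike-in scaling. That scaling moves all genes by nearly the same amount, so such relative medians could hardly change and are no check. Counts per list cover the members that passed the filter and stand beside 18.6% higher and 19.1% lower over all tested genes. Where 5 or fewer members of a list were called in a direction most of them are named, some of them after their values were seen. Of the 32 list counts above 5, 16 moved by more than 1.5 times when 1 of the 4 libraries was left out, 12 of them without TCDD replicate 1, and the counts without such libraries stand beside those given below.

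**Figure D1:**
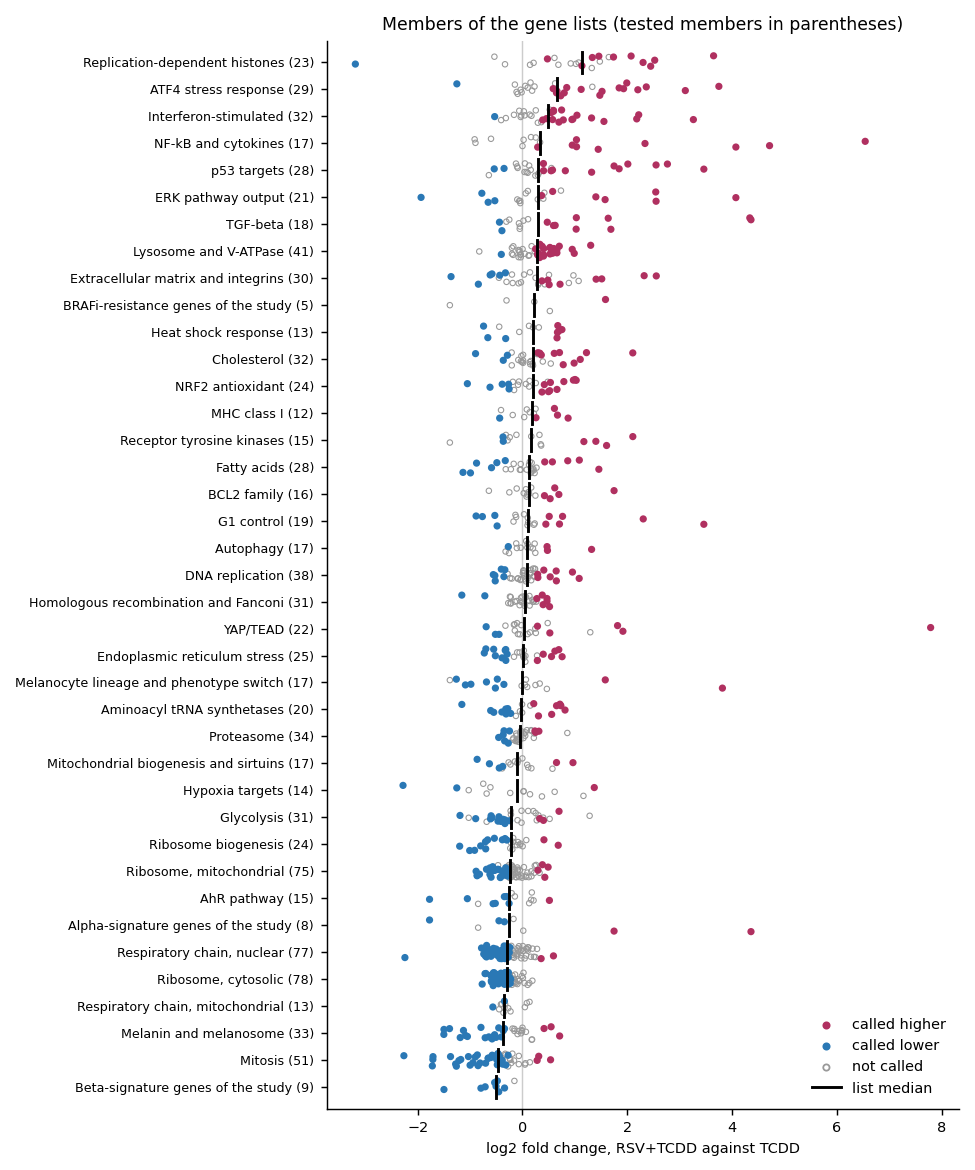
Log2 fold change in RSV+TCDD against TCDD (horizontal axis, TMM scaling) of the tested members of 39 gene lists, ordered by list median. Points are genes, filled where called (higher or lower) and open where not, and black bars are list medians, which run from -0.50 for the pigmentation genes named in the study to 1.13 for the histone genes. Spike-in scaling moved the median of all genes by -0.70.

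In the AhR pathway RSV had its clearest effect on the induced enzymes. CYP1A1, the main detoxifying enzyme induced by AhR, stood at 156 and 131 CPM with TCDD and at 41.8 and 42.2 CPM with RSV+TCDD, so that the groups were far apart (log2 fold change -1.77, SE 0.12, edgeR adjusted p = 8.29e-09), a 3.42-fold lower level. The vehicle libraries held 23.5 and 23.1 CPM and the RSV libraries 69.03 and 67.5 CPM, so RSV+TCDD lay above vehicle and below RSV alone. NQO1, a quinone reductase that AhR and NRF2 both control, had 627 and 578 CPM in the TCDD libraries and 273 and 308 CPM in the RSV+TCDD libraries (log2 fold change -1.05, SE 0.09, edgeR adjusted p = 1.67e-07). It had 287 and 300.2 CPM with vehicle and 289.8 and 288 CPM with RSV, and the RSV+TCDD libraries thus stood close to the cells without TCDD. CYP1B1, another AhR-induced cytochrome, was barely counted, at 0.812 and 0.662 CPM in the TCDD libraries and 0.253 and 0.565 CPM in the RSV+TCDD libraries, and was not called (log2 fold change -0.85, SE 0.49, edgeR adjusted p = 0.191).

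The promoters of both enzymes are shown because CYP1A1 and NQO1 carry the clearest AhR response in this comparison. They run from 250 bases before the start of the gene to 50 bases after it (RefSeq, GRCh38.p14, 5′ to 3′ in the direction of the gene), and capitals mark GCGTG, the core of the xenobiotic response element, on either strand.
CYP1A1 (chr15:74725479-74725778, minus strand): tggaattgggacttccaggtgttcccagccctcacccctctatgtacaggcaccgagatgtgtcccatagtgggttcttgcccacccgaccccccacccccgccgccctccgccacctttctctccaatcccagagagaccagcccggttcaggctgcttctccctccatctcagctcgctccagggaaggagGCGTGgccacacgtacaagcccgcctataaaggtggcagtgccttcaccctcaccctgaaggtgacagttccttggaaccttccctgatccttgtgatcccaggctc
NQO1 (chr16:69726511-69726810, minus strand): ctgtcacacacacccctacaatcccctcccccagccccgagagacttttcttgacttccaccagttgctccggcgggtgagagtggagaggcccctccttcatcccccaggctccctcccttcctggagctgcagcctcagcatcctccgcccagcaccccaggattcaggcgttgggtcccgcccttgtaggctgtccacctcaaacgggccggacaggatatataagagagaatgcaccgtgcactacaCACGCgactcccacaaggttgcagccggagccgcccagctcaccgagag
GCGTG was found once in each window, as its reverse complement in NQO1. It lay in 10 of the 13 tested AhR-pathway genes with a promoter in the table (76.9%), in 69.6% of the ATF4-response, 53.6% of the pigmentation promoters and 21 of the 42 mitosis promoters found, and in 36.3% of all 27305 promoters. All 27305 promoters include those of untested genes, so they are no matched background. Over all tested genes it lay in 50.5%, close to the mitosis and pigmentation shares. Promoters were found for only 68.8% of the tested genes, and no enrichment is read from either comparison. A match is a description of these letters and not evidence of binding.

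Among the receptor and its partners, AHR itself rose from 50.8 and 45.4 to 68.3 and 69.3 CPM (log2 fold change 0.51, SE 0.11, edgeR adjusted p = 0.00127). The vehicle and RSV libraries held 54.96 and 58.3 and 80.2 and 80.4 CPM. Its partner ARNT had 69.7 and 72.9 CPM in the TCDD libraries and 83.9 and 81.03 CPM in the RSV+TCDD libraries and was not called (log2 fold change 0.21, SE 0.10, edgeR adjusted p = 0.0881). The chaperone HSP90AB1 fell from 2532 and 2676 to 1869 and 1767 CPM (log2 fold change -0.52, SE 0.08, edgeR adjusted p = 1.02e-04). PTGES3, the p23 cochaperone, had a log2 fold change of -0.56 and was called at an adjusted p of 0.0494 in edgeR, a call that was lost without TCDD replicate 1 (adjusted p = 0.214, edgeR), without TCDD replicate 2 (0.0891) and without RSV+TCDD replicate 1 (0.193). Of the feedback repressors, TIPARP, which ADP-ribosylates AhR, had 109 and 91.5 CPM in the TCDD libraries and 76.3 and 81.6 CPM in the RSV+TCDD libraries (log2 fold change -0.35, SE 0.11, edgeR adjusted p = 0.0219), against 55.4 and 47.7 CPM with vehicle. This call was lost without TCDD replicate 1 (-0.21, edgeR adjusted p = 0.303) and without RSV+TCDD replicate 1 (-0.30, edgeR adjusted p = 0.134). AHRR, the AhR repressor, was not called and had 21.5 and 19.3 CPM in the TCDD libraries and 24.99 and 19.8 CPM in the RSV+TCDD libraries (log2 fold change 0.13, SE 0.15, edgeR adjusted p = 0.530). NFE2L2, which encodes NRF2, was called lower (log2 fold change -0.26, SE 0.09, edgeR adjusted p = 0.0383), and lost the call when any of the 4 libraries was left out. Over the whole list, 15 of 20 genes passed the filter, 1 was called higher and 7 lower (3 lower without TCDD replicate 1 or RSV+TCDD replicate 1 and 4 without TCDD replicate 2), with a median log2 fold change of -0.26. CYP1A2, ALDH3A1, UGT1A6, CYP2S1 and FMO1 did not pass the filter. The study's text names 10 AhR-induced genes, most of them as its α-signature, and 8 of them were tested, 2 higher (INHBA and PMAIP1) and 3 lower (CYP1A1, TIPARP and LRRC49), with 1 lower without TCDD replicate 1 or RSV+TCDD replicate 1. Whether that list was chosen on these libraries was not established, so it is no independent evidence of direction.

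The effect of RSV differed with and without TCDD in 24 genes (0.149% of those tested, 1268 at an unadjusted p below 0.05), by the interaction term of the model, which is the log2 fold change of RSV in TCDD-treated cells minus that in cells without TCDD. Spike-in scaling left 1 of these calls. Of the 24 genes, 22 had a negative interaction and 2, HEY1 and a long non-coding RNA, a positive one. CYP1A1 was the most different, with an interaction of -3.32 (SE 0.17, edgeR adjusted p = 1.50e-09), since RSV raised it by 1.55 without TCDD and lowered it with TCDD. NQO1 had an interaction of -1.03 (SE 0.13, edgeR adjusted p = 9.18e-04), and its change with RSV alone was -0.02.

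Several of these 24 genes stood high in the TCDD libraries and near the vehicle level in RSV+TCDD. YWHAH, a 14-3-3 scaffold protein, had 394 and 372 CPM with TCDD, 147 and 162 CPM with RSV+TCDD, 209 and 208 CPM with vehicle and 174 and 178 CPM with RSV (interaction -1.06, SE 0.12, edgeR adjusted p = 4.65e-04). FN1, the matrix protein fibronectin, had 2721 and 2544 CPM with TCDD against 1073 and 973 CPM with RSV+TCDD, 1110.1 and 956 CPM with vehicle and 734 and 889 CPM with RSV (interaction -1.02). RNASE1, a secreted ribonuclease, had 25.2 and 28.4 CPM with TCDD and 4.66 and 5.94 CPM with RSV+TCDD, and LGI3, a secreted leucine-rich protein, had 36.8 and 36.8 and 6.74 and 8.81 CPM. Their vehicle libraries held 5.21 and 6.84 CPM of RNASE1 and 7.996 and 7.08 CPM of LGI3, so that in both genes the TCDD libraries lay above those of all the other 3 groups. CSRP2, a LIM-domain protein, and LUM, the proteoglycan lumican, had the same order, with 684 and 644 CPM of CSRP2 and 38.2 and 30.8 CPM of LUM with TCDD, and 239.9 and 286 and 10.4 and 13.2 CPM with RSV+TCDD. RP11-1220K2.2, a non-coding RNA, had 12.7 and 11.03 CPM with TCDD and 2.79 and 2.83 CPM with RSV+TCDD (interaction -2.09), against 4.81 and 3.36 CPM with vehicle. The transmembrane protein TMEM2 and the armadillo-repeat protein ARMC9 differed in direction, since RSV raised them by 0.42 and 0.38 without TCDD and lowered them by log2 fold changes of -0.43 and -0.53 with TCDD. The long non-coding RNA with a positive interaction (1.30) had 9.57 and 9.26 CPM with TCDD and 21.5 and 22.1 CPM with RSV+TCDD, above 15.6 and 11.5 CPM with vehicle. Apart from CYP1A1, NQO1 and YWHAH, each of the 12 interactions described lost its call without at least 1 library. Without TCDD replicate 1 these were FN1 (adjusted p = 0.126, edgeR), LGI3 (0.0520), RP11-1220K2.2 (0.127), TMEM2 (0.126), ARMC9 (0.144), CSRP2 (0.152), LUM (0.220) and the non-coding RNA (0.144). RNASE1 lost its call (adjusted p = 0.0533, edgeR) without TCDD replicate 2.

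**Figure D2:**
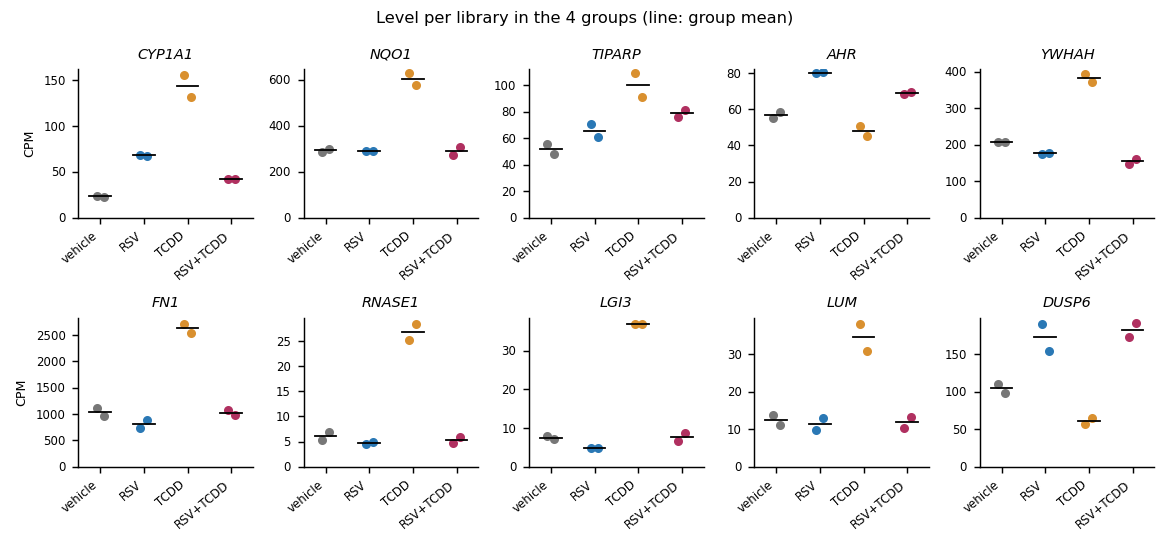
TMM-scaled CPM (vertical axes, from 0) of 10 genes in each library of the vehicle, RSV, TCDD and RSV+TCDD groups, with points for libraries and lines for group means. CYP1A1 was at 156 and 131 CPM with TCDD and 41.8 and 42.2 CPM with RSV+TCDD, while LUM was at 38.2 and 30.8 CPM with TCDD and 10.4 and 13.2 CPM with RSV+TCDD.

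Pigment cell genes were lower with RSV+TCDD. Of the 33 genes of the melanin and melanosome list, all of which were tested, 18 were called lower and 3 higher (GPNMB, BLOC1S2 and BLOC1S3), with a median log2 fold change of -0.37. All 3 melanin synthesis enzymes fell. TYRP1, which stabilises tyrosinase and completes eumelanin synthesis, had 6899 and 6298 CPM in the TCDD libraries and 2103 and 2559.8 CPM in the RSV+TCDD libraries, a 2.83-fold lower level (log2 fold change -1.50, SE 0.11, edgeR adjusted p = 6.81e-08). TYR, the rate-limiting tyrosinase, fell from 1446 and 1420.2 to 1043 and 977 CPM (log2 fold change -0.50, SE 0.08, edgeR adjusted p = 1.35e-04). DCT, the dopachrome tautomerase, fell from 4445 and 3753 to 2519.6 and 2733 CPM (log2 fold change -0.64, SE 0.15, edgeR adjusted p = 0.00473). In all 3 enzymes both RSV+TCDD libraries lay below both TCDD libraries, but the groups did not overlap in any of the 6057 called genes.

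Among the 10 matrix proteins, channels and pumps of the melanosome, 8 were called lower. The chloride channel OCA2 had 171 and 164 CPM in the TCDD libraries and 60.4 and 58.1 CPM in the RSV+TCDD libraries (log2 fold change -1.50, SE 0.12, edgeR adjusted p = 5.66e-08). The cation exchanger SLC24A5 fell from 335 and 321 to 126 and 162 CPM (log2 fold change -1.19, SE 0.12, edgeR adjusted p = 2.32e-06). GPNMB, a melanosomal glycoprotein, went the other way, from 905 and 873 to 1329.8 and 1266 CPM (log2 fold change 0.55, SE 0.09, edgeR adjusted p = 1.36e-04). Of the 17 transport and sorting genes 5 were lower and 2 higher (1 higher without TCDD replicate 1). The myosin motor MYO5A, which carries melanosomes to the cell edge, fell from 506 and 463 to 229 and 239 CPM (log2 fold change -1.05, SE 0.09, edgeR adjusted p = 2.19e-07). MC1R, the melanocortin receptor, had low levels, at 5.64 and 6.54 CPM in the TCDD libraries and 2.64 and 1.98 CPM in the RSV+TCDD libraries (log2 fold change -1.39, SE 0.22, edgeR adjusted p = 1.03e-04). The 9 pigmentation genes that the study's text names, most of them as its β-signature, were called lower in 8 cases, with a median of -0.50, and in 5 cases without TCDD replicate 1 or RSV+TCDD replicate 1, and the same limit holds for that list.

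The TYRP1 promoter is shown because TYRP1 had the largest decrease among the pigment genes of the lists (RefSeq, GRCh38.p14, same window). Capitals mark CATGTG, the core of the M-box that MITF binds, which is also a form of the E-box CANNTG, on either strand.
TYRP1 (chr9:12693135-12693434, plus strand): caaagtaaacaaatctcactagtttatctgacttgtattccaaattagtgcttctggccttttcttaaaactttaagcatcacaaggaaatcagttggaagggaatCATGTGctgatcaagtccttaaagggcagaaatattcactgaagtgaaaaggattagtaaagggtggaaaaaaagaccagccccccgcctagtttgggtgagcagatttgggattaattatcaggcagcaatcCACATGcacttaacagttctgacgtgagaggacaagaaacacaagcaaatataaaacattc
The motif occurred once in each direction. It lay in 11 of the 28 pigmentation promoters found, which is 39.3%, and in 11.2% of all 27305 promoters, which include those of untested genes. The share was 6.94% over all tested genes and 7.95% over those called lower, with promoters found for only 68.8% and 72.9% of them. No enrichment is read from any of these comparisons.

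Of 17 tested genes of the melanocyte lineage and phenotype switch list, 7 were called lower and 2 higher, with a median log2 fold change of -0.02. The lower count fell when any library was left out. Of the lineage factors, TFAP2A, a regulator of melanocyte enhancers, fell from 182 and 170.2 to 88.4 and 89.8 CPM (log2 fold change -0.98, SE 0.09, edgeR adjusted p = 2.98e-07). MITF had 943 and 863 CPM in the TCDD libraries and 588 and 707 CPM in the RSV+TCDD libraries (log2 fold change -0.48, SE 0.15, edgeR adjusted p = 0.0268). This call was lost without TCDD replicate 1 (adjusted p = 0.148, edgeR), TCDD replicate 2 (0.0516) and RSV+TCDD replicate 1 (0.179). Among the genes of dedifferentiation, the repressor SNAI2 fell from 189.8 and 180.3 to 73.4 and 80.8 CPM, back towards the 90.03 and 69.1 CPM of vehicle (log2 fold change -1.26, SE 0.12, edgeR adjusted p = 3.70e-07). ZEB1 and NGFR, named here because they were the 2 members of the lineage list called higher, had low counts: ZEB1 had 0.316 and 0.147 CPM in the TCDD libraries and 1.01 and 0.518 CPM in the RSV+TCDD libraries and NGFR had 0.0903 and 0.0735 CPM in the TCDD libraries and 1.52 and 1.04 CPM in the RSV+TCDD libraries. AXL, a receptor kinase of the dedifferentiated state, had no count with TCDD and 0.0507 and 0.141 CPM with RSV+TCDD, and was not tested. Of the 7 resistance genes named in the study, 5 were tested and ZEB1 was the 1 called, a call lost with DESeq2 and in edgeR without either TCDD library or without RSV+TCDD replicate 1. The list showed no common direction, and its median of 0.23 fell below that of all genes without TCDD replicate 2.

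In the output of the ERK pathway 7 of 21 tested genes were higher and 4 lower (ETV4, SPRED1, MYC and CCND1). These shares, 33.3% and 19.0%, stand beside 18.6% and 19.1% of all genes. The lower share was thus near that of all genes. The ERK phosphatase DUSP6 had 56.95 and 65.6 CPM in the TCDD libraries and 173 and 192 CPM in the RSV+TCDD libraries (log2 fold change 1.58, SE 0.14, edgeR adjusted p = 8.58e-07). It had 111 and 98.5 CPM with vehicle. DUSP5, a nuclear ERK phosphatase, rose from 7.18 and 8.38 to 47.8 and 42.6 CPM (log2 fold change 2.55, SE 0.31, edgeR adjusted p = 1.30e-04). FOSL1, an AP-1 subunit, rose from 1.58 and 1.25 to 8.46 and 8.43 CPM (log2 fold change 2.54, SE 0.28, edgeR adjusted p = 2.79e-06). The chemokine gene IL8 rose from 0.316 and 0.368 to 5.17 and 6.36 CPM (log2 fold change 4.07, SE 0.47, edgeR adjusted p = 9.66e-06). MYC fell from 107 and 122 to 30.3 and 29.5 CPM, a 3.83-fold lower level that set both groups far apart (log2 fold change -1.94, SE 0.13, edgeR adjusted p = 9.39e-09). The ETS factor ETV4 fell from 138 and 149.8 to 91.4 and 91.02 CPM (log2 fold change -0.66, SE 0.10, edgeR adjusted p = 9.35e-05). SPRED1, a RAS inhibitor, fell from 99.5 and 92.5 to 51.6 and 60.6 CPM (log2 fold change -0.78, SE 0.14, edgeR adjusted p = 3.45e-04).

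In the control of G1, 6 of 19 tested genes were higher and 4 lower (CCND1, CDK6, CDK2 and CDKN1B). These shares, 31.6% and 21.1%, stand beside 18.6% and 19.1% of all genes. CCND1, cyclin D1, fell from 759 and 831 to 529 and 574 CPM (log2 fold change -0.53, SE 0.08, edgeR adjusted p = 1.07e-04). Its kinase CDK6 fell as well (log2 fold change -0.77, SE 0.13, edgeR adjusted p = 1.71e-04). CDKN2B, the p15 inhibitor of that kinase, had 5.55 and 4.63 CPM in the TCDD libraries and 25.3 and 25.7 CPM in the RSV+TCDD libraries, a 4.94-fold rise (log2 fold change 2.31, SE 0.17, edgeR adjusted p = 2.69e-08). CDKN2C, the p18 inhibitor, rose from 30.8 and 27.8 to 41.4 and 42.4 CPM (log2 fold change 0.51, SE 0.11, edgeR adjusted p = 0.00140). CDKN1A, the p21 inhibitor, was nearly absent with TCDD, at 0.181 and 0 CPM (4 and 0 counts), and had 1.06 and 1.51 CPM with RSV+TCDD (log2 fold change 3.46, SE 0.63, edgeR adjusted p = 4.05e-04), a value that was 7.49 without TCDD replicate 1. CDKN1B, the p27 inhibitor, was lower at -0.89 but lost its call when any library was left out. The S-phase genes CCNE2 (0.71, SE 0.16) and E2F2 (0.77, SE 0.12) rose.

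Most mitotic genes fell. Of 51 genes, all tested, 34 were called lower and 3 higher (FOXM1, CENPM and ZWINT), with a median log2 fold change of -0.47, beside 19.1% called lower over all genes. The 3 increases lost their call without TCDD replicate 1 or RSV+TCDD replicate 1. PLK1, the kinase that drives mitotic entry and spindle assembly, had 122 and 138 CPM in the TCDD libraries and 27.98 and 26.1 CPM in the RSV+TCDD libraries (log2 fold change -2.26, SE 0.12, edgeR adjusted p = 2.52e-09), a 4.80-fold lower level. CDC20, which activates the anaphase-promoting complex, fell from 127 and 152 to 42.3 and 42.9 CPM (log2 fold change -1.71, SE 0.13, edgeR adjusted p = 4.63e-08). CCNB1, cyclin B1, fell from 164 and 166 to 64.6 and 71.7 CPM (log2 fold change -1.28, SE 0.10, edgeR adjusted p = 5.66e-08). As in all called genes, the groups did not overlap in these. The vehicle libraries lay near the TCDD level, for example at 125 and 154 CPM of PLK1. At the kinetochore, the motor CENPE fell from 109 and 103 to 25.8 and 38.9 CPM (log2 fold change -1.71, SE 0.18, edgeR adjusted p = 5.94e-06) and the checkpoint kinase BUB1B from 118 and 114 to 48.5 and 51.4 CPM (log2 fold change -1.21, SE 0.11, edgeR adjusted p = 2.74e-07). Of the 17 spindle motor and cytokinesis genes 13 were lower, among them KIF20A, which is needed for cytokinesis, from 125 and 129 to 39.1 and 37.9 CPM (log2 fold change -1.72, SE 0.11, edgeR adjusted p = 4.99e-09). ASPM, a spindle pole protein, fell as well (-1.37, SE 0.16).

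The PLK1 promoter is shown because PLK1 fell most within the mitosis list (RefSeq, GRCh38.p14, same window). Capitals mark TTTGAA, the cell cycle homology region to which the DREAM and MuvB complexes bind, searched on both strands.
PLK1 (chr16:23678639-23678938, plus strand): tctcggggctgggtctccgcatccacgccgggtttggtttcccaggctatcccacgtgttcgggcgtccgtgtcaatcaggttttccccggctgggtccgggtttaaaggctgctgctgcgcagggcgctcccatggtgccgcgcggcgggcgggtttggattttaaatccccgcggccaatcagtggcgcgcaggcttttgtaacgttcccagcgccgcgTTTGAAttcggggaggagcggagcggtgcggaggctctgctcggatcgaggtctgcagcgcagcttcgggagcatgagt
TTTGAA lay in 29 of the 42 mitosis promoters found, which is 69.0%, and in 20 of the 28 of those called lower. It lay in 15.4% of all 27305 promoters, which include those of untested genes. Its share was 9.89% over all tested genes, 11.2% among those called lower and 9.43% among those called higher. Promoters were found for only 68.8%, 72.9% and 74.8% of these genes, and no enrichment is read from any of these comparisons.

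DNA replication genes did not share the direction of the mitotic genes. Of 38 genes 8 were higher and 6 lower, near the 18.6% and 19.1% of all genes, with a median of 0.08. Without TCDD replicate 1 only 4 were higher, and without TCDD replicate 2 or RSV+TCDD replicate 2 only 5. Lower calls numbered 2 without TCDD replicate 2 and 3 without RSV+TCDD replicate 1. The licensing factor CDT1 rose from 63.5 and 75.4 to 137 and 132 CPM (log2 fold change 0.95, SE 0.12, edgeR adjusted p = 1.32e-05). TK1, the thymidine kinase of the salvage pathway, rose from 66.7 and 75.9 to 151 and 151 CPM (log2 fold change 1.08, SE 0.11, edgeR adjusted p = 1.60e-06). POLA2, a polymerase α subunit, rose (0.65, SE 0.10), while POLA1, its catalytic partner, fell (-0.56, SE 0.10). MCM2, part of the replicative helicase, had 198 and 208 CPM in the TCDD libraries and 229 and 226 CPM in the RSV+TCDD libraries and was not called (log2 fold change 0.17, SE 0.09, edgeR adjusted p = 0.142). Of 55 replication-dependent histone genes only 23 passed the filter, 10 of them higher and 1 lower (HIST2H2AC, not called without RSV+TCDD replicate 2), with a median of 1.13. HIST1H2BD had 1.31 and 2.06 CPM in the TCDD libraries and 9.48 and 6.55 CPM in the RSV+TCDD libraries (log2 fold change 2.30, SE 0.32, edgeR adjusted p = 6.83e-05). HIST1H2AC had 2.84 and 1.69 CPM in the TCDD libraries and 8.77 and 7.07 CPM in the RSV+TCDD libraries (log2 fold change 1.74, SE 0.21, edgeR adjusted p = 8.18e-06). These mRNAs mostly lack a poly(A) tail, the libraries were selected for poly(A), and near-identical copies share reads, so the levels are uncertain. In homologous recombination and the Fanconi pathway 6 of 31 genes were higher, near the 18.6% of all genes, and 2 lower (RAD51B and FANCF). Without either TCDD library 2 were higher, and 3 without RSV+TCDD replicate 2. BRCA1 rose from 96.8 and 98.4 to 136 and 143 CPM (log2 fold change 0.52, SE 0.10, edgeR adjusted p = 7.92e-04), while RAD51B fell from 12.6 and 10.7 to 5.12 and 5.37 CPM (log2 fold change -1.16, SE 0.16, edgeR adjusted p = 3.30e-05).

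Of the p53 targets, 28 of 32 were tested, 12 were higher and 2 lower (CCNG1 and PLK2), with a median of 0.30, and 7 were higher without TCDD replicate 1. Both decreases lost their call without TCDD replicate 1 or RSV+TCDD replicate 1. SESN2, which restrains mTORC1, rose from 15.5 and 14.6 to 59.4 and 49.1 CPM (log2 fold change 1.85, SE 0.27, edgeR adjusted p = 5.32e-04). TP53I3, a quinone oxidoreductase, rose from 0.451 and 0.515 to 3.85 and 2.73 CPM (log2 fold change 2.77, SE 0.31, edgeR adjusted p = 3.44e-06). MDM2, the direct feedback inhibitor of p53, had 68.7 and 61.6 CPM in the TCDD libraries and 55.95 and 66.5 CPM in the RSV+TCDD libraries (log2 fold change -0.09, SE 0.11, edgeR adjusted p = 0.556). DDB2, a repair gene, was called at 0.40, a call lost without 3 of the 4 libraries taken singly (TCDD replicates 1 and 2 and RSV+TCDD replicate 1). Within the BCL2 family 5 of 16 genes were higher and the other 11 were not called. PMAIP1, the death-promoting NOXA, rose from 4.56 and 4.999 to 14.4 and 17.5 CPM (log2 fold change 1.75, SE 0.20, edgeR adjusted p = 3.11e-06). The survival members MCL1, from 156 and 149 to 233 and 261 CPM (log2 fold change 0.69, SE 0.09, edgeR adjusted p = 1.86e-05), and BCL2, from 26.8 and 23.97 to 37.9 and 35.5 CPM (log2 fold change 0.53, SE 0.13, edgeR adjusted p = 0.00365), rose as well, and HRK and BCL2L1 completed the 5.

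Many genes of the ATF4 stress response rose. Of 30 genes 29 were tested, 16 were called higher and 1 lower (SLC1A4), with a median of 0.66, beside 18.6% called higher over all genes. Of its 12 factors 9 were higher. With spike-in scaling, tested against 0, 5 members of the list were called higher and 1 lower. CHAC1, which degrades glutathione and is a marker of this response, had 2.12 and 1.91 CPM in the TCDD libraries and 31.1 and 23.8 CPM in the RSV+TCDD libraries, a 13.4-fold rise (log2 fold change 3.75, SE 0.57, edgeR adjusted p = 0.00201). NUPR1, a stress-induced chromatin protein, had 4.42 and 7.13 CPM in the TCDD libraries and 50.2 and 46.4 CPM in the RSV+TCDD libraries (log2 fold change 3.11, SE 0.31, edgeR adjusted p = 4.34e-05). The vehicle libraries held 8.76 and 3.28 CPM of CHAC1 and 15.7 and 10.1 CPM of NUPR1, above the TCDD libraries in both genes. ATF4 itself had 321 and 350.01 CPM in the TCDD libraries and 538 and 469 CPM in the RSV+TCDD libraries (log2 fold change 0.59, SE 0.17, edgeR adjusted p = 0.0188), a call lost without TCDD replicate 1 (adjusted p = 0.127, edgeR), TCDD replicate 2 (0.0560) and RSV+TCDD replicate 1 (0.125). ASNS, asparagine synthetase, rose from 26.4 and 31.1 to 124 and 103 CPM (log2 fold change 1.99, SE 0.28, edgeR adjusted p = 7.76e-04). CTH, which makes cysteine, rose from 15.9 and 15.7 to 37.05 and 31.8 CPM (log2 fold change 1.12, SE 0.14, edgeR adjusted p = 1.28e-05). SLC1A4, a carrier of neutral amino acids, fell from 1285 and 1302 to 516 and 569.9 CPM (log2 fold change -1.25, SE 0.13, edgeR adjusted p = 3.63e-06).

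The CHAC1 promoter is shown because it was the 1 of the 23 ATF4-response promoters found to hold TTGCATCA, the element bound by ATF4 with C/EBP proteins, on either strand, marked in capitals (RefSeq, GRCh38.p14, same window).
CHAC1 (chr15:40953221-40953520, plus strand): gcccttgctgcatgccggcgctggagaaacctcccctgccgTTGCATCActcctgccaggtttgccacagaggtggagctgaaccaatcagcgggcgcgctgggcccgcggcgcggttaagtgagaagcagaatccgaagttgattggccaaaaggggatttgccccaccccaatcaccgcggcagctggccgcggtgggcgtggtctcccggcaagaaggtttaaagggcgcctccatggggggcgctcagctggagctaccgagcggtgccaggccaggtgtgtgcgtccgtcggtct
The same letters lay in 0.923% of all 27305 promoters, which include those of untested genes. Promoters were found for 79.3% of the ATF4 list, which limits any share over it, for this element and for GCGTG.

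Other arms of proteostasis were mixed. Of 20 aminoacyl tRNA synthetases 7 were higher and 8 lower (4 lower without either TCDD library or RSV+TCDD replicate 2), from AARS, which charges alanine tRNA (from 201 and 234 to 407 and 356 CPM; log2 fold change 0.81, SE 0.10, edgeR adjusted p = 1.17e-05), to VARS, which charges valine tRNA (from 209.7 and 225 to 97.6 and 97.3 CPM; log2 fold change -1.16, SE 0.09, edgeR adjusted p = 1.07e-07). In the endoplasmic reticulum stress list 6 of 25 tested genes were higher and 9 lower (4 lower without TCDD replicate 2 and 5 without RSV+TCDD replicate 2). The chaperones fell in 8 of 15 cases (3 without TCDD replicate 2 and 5 without RSV+TCDD replicate 2), among them HSP90B1 from 1590.3 and 1624 to 969 and 969 CPM (log2 fold change -0.73, SE 0.09, edgeR adjusted p = 1.39e-05), while HERPUD1, which serves degradation at the membrane, rose from 51.04 and 51.98 to 89.8 and 84.2 CPM (log2 fold change 0.76, SE 0.12, edgeR adjusted p = 1.09e-04) and the transcription factor XBP1 rose from 122 and 131 to 205 and 203 CPM (log2 fold change 0.69, SE 0.12, edgeR adjusted p = 1.77e-04). Of 13 heat shock genes 5 were higher, namely HSPA1A, HSPA1B, DNAJB1, BAG3 and CRYAB, and 3 lower, namely HSPD1, HSPE1 and HSF2. Without RSV+TCDD replicate 1 there were 3 higher, and 2 without any other of the 4 libraries, and HSPA1B lost its call in those 3 cases (adjusted p = 0.0540 to 0.119, edgeR). BAG3, an HSP70 cochaperone, rose from 39.7 and 47.1 to 75.4 and 70.5 CPM (log2 fold change 0.75, SE 0.13, edgeR adjusted p = 3.09e-04). HSPD1, the mitochondrial HSP60, fell from 1086 and 1083 to 646 and 725 CPM (log2 fold change -0.66, SE 0.09, edgeR adjusted p = 2.83e-05). HSPA1A and HSPA1B share reads, so their levels are uncertain.

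**Figure D3:**
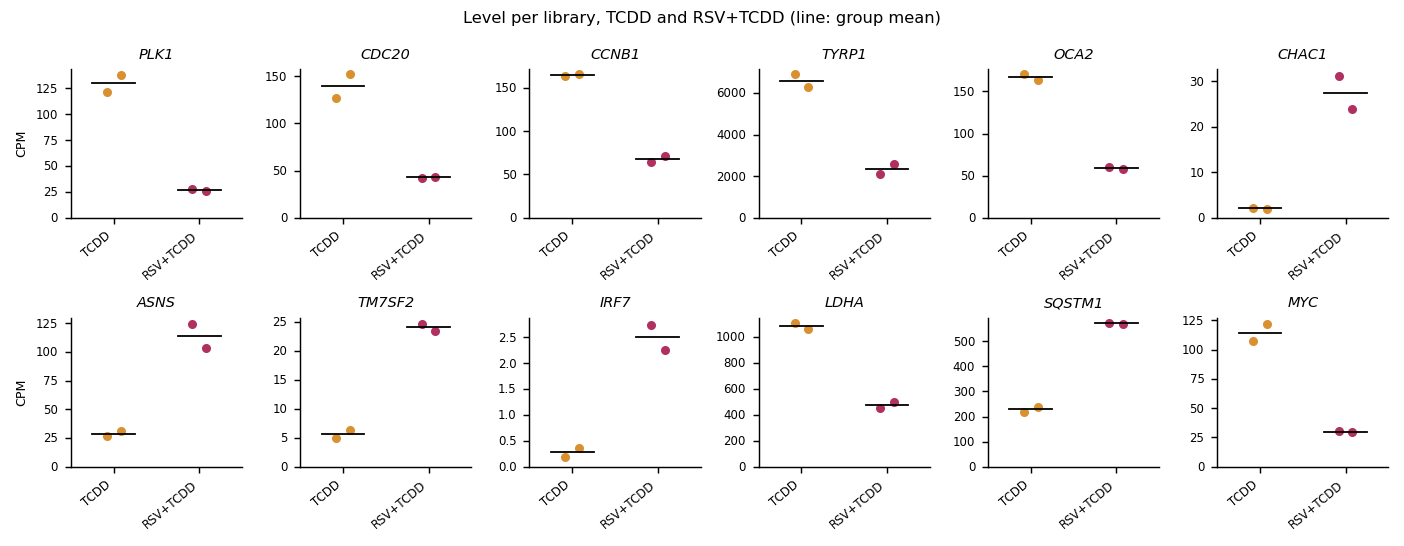
TMM-scaled CPM (vertical axes, from 0) of 12 genes in the TCDD and RSV+TCDD libraries, with points for libraries and lines for group means. PLK1, CDC20, CCNB1, TYRP1, OCA2, LDHA and MYC are lower while CHAC1, ASNS, TM7SF2, IRF7 and SQSTM1 are higher with RSV+TCDD. The groups do not overlap in these genes, nor in any other of the 6057 called genes.

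More NRF2 targets were higher than lower. The shares were 41.7% higher and 20.8% lower, beside 18.6% and 19.1% of all tested genes. The lower share was thus near that of all genes. With spike-in scaling, tested against 0, 0 were called higher and 2 lower. Of 24 tested genes 10 were higher and 5 lower (NQO1, TXN, ABCC1, FTH1 and NFE2L2), with a median of 0.19, and 2 were lower without either TCDD library or RSV+TCDD replicate 2. HMOX1, haem oxygenase 1, rose from 24.6 and 29.9 to 55.4 and 54.98 CPM (log2 fold change 1.03, SE 0.16, edgeR adjusted p = 1.62e-04). OSGIN1, an oxidative stress-induced growth inhibitor, rose from 39.8 and 43.2 to 83.4 and 79.2 CPM (log2 fold change 0.97, SE 0.15, edgeR adjusted p = 9.50e-05). KEAP1, the adaptor that marks NRF2 for degradation, rose from 28.5 and 31.3 to 59.6 and 60.1 CPM (log2 fold change 1.00, SE 0.17, edgeR adjusted p = 4.37e-04). TXN, thioredoxin, fell from 175 and 170.04 to 105 and 119 CPM (log2 fold change -0.62, SE 0.10, edgeR adjusted p = 1.02e-04).

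In cholesterol metabolism 10 of 32 tested genes were higher and 3 lower (PMVK and SREBF2 among them), and 5 were higher without TCDD replicate 1 and 1 lower without TCDD replicate 2 or RSV+TCDD replicate 1. TM7SF2, a sterol reductase late in the pathway, rose from 5.01 and 6.32 to 24.6 and 23.5 CPM (log2 fold change 2.11, SE 0.16, edgeR adjusted p = 3.93e-08). NPC1, which releases cholesterol from lysosomes, rose from 83.5 and 86.5 to 177 and 159.7 CPM (log2 fold change 0.99, SE 0.09, edgeR adjusted p = 3.19e-07). NR1H3, the liver X receptor α, rose from 7.90 and 8.67 to 17.6 and 17.8 CPM (log2 fold change 1.10, SE 0.15, edgeR adjusted p = 1.92e-05). Among fatty acid genes 5 of 28 were higher (17.9%) and 6 lower (21.4%), near the 18.6% and 19.1% of all genes. The elongases split, with ELOVL7 (1.46, SE 0.22) and ELOVL4 (1.08, SE 0.17) higher and ELOVL6 (-1.14, SE 0.13) lower. FASN, fatty acid synthase, fell from 312 and 362 to 170.4 and 168 CPM (log2 fold change -0.99, SE 0.13, edgeR adjusted p = 2.12e-05), whereas the oxidation genes ACADVL, from 71.2 and 75.8 to 142 and 125 CPM (log2 fold change 0.86, SE 0.13, edgeR adjusted p = 6.55e-05), CPT1A (0.57, SE 0.13) and CPT2 rose.

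Glycolysis genes were lower in 13 of 31 tested cases and higher in 3 (PDK2, PDK4 and MPC2), with a median of -0.23. PDK2 and PDK4, kinases that inhibit pyruvate dehydrogenase, lost their call when any of the 4 libraries was left out, and so did MPC2 except without RSV+TCDD replicate 1. LDHA, the lactate dehydrogenase subunit that favours lactate, had 1108 and 1058 CPM in the TCDD libraries and 453 and 494 CPM in the RSV+TCDD libraries (log2 fold change -1.19, SE 0.13, edgeR adjusted p = 1.28e-05). PGK1, phosphoglycerate kinase, had 1286 and 1208 CPM in the TCDD libraries and 661 and 682 CPM in the RSV+TCDD libraries (log2 fold change -0.89, SE 0.14, edgeR adjusted p = 1.81e-04). GAPDH, often used as a reference gene, also fell from 2976 and 2998 to 1982 and 1962 CPM (log2 fold change -0.60, SE 0.09, edgeR adjusted p = 9.36e-05). Hypoxia targets as a list showed 1 higher (NDRG1) and 2 lower (CA12 and EGLN3) of 14 tested, with 1 lower without either TCDD library or RSV+TCDD replicate 1, and its median of -0.11 turned above 0 relative to all genes when at least 10 counts were required in every library.

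Many genes of the nuclear-encoded respiratory chain fell. Of 77 genes, all tested, 41 were called lower and 2 higher (UQCRC1 and ATPIF1), with a median of -0.29, and 25 were lower without RSV+TCDD replicate 1. In the ATP synthase 13 of 16 genes were lower, and in complex I 19 of 38 (10 without RSV+TCDD replicate 1). ATP5G1, a subunit of the membrane ring, fell from 81.1 and 81.8 to 43.9 and 50.8 CPM (log2 fold change -0.78, SE 0.11, edgeR adjusted p = 2.50e-05). NDUFS4 of complex I fell from 46.3 and 43.9 to 25.8 and 28.2 CPM (log2 fold change -0.74, SE 0.11, edgeR adjusted p = 5.34e-05). UQCRFS1, the Rieske protein of complex III, fell from 96.6 and 90.8 to 56.97 and 57.9 CPM (log2 fold change -0.71, SE 0.09, edgeR adjusted p = 1.90e-05). ATPIF1, the inhibitor of the ATP synthase, rose from 63.99 and 66.2 to 99.1 and 97.1 CPM (log2 fold change 0.59, SE 0.10, edgeR adjusted p = 1.97e-04). The 13 subunits encoded in mitochondrial DNA had 2 calls, MT-ND3 and MT-ND4, both lower, and both were lost without TCDD replicate 2 or RSV+TCDD replicate 1 and 1 decrease was left without either other library. PPARGC1B, a coactivator of mitochondrial genes, fell from 20.3 and 22.7 to 13.6 and 9.99 CPM (log2 fold change -0.87, SE 0.17, edgeR adjusted p = 5.57e-04). Of the sirtuins, SIRT1, a deacetylase often linked to resveratrol, rose from 18.9 and 19.04 to 28.1 and 31.4 CPM (log2 fold change 0.65, SE 0.12, edgeR adjusted p = 4.99e-04). SIRT7, a nucleolar deacetylase, rose from 10.9 and 11.03 to 22.7 and 20.1 CPM (log2 fold change 0.96, SE 0.15, edgeR adjusted p = 1.06e-04), while the other 5 were not called.

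Most cytosolic ribosomal protein genes fell by a small amount. Of 78 genes, all tested, 57 were called lower and the other 21 were not called, with a median of -0.30, 33 were lower without RSV+TCDD replicate 1 and 34 without TCDD replicate 1, and the lowest value was -0.77, for RPL17. RPSA fell from 1149 and 1155 to 671 and 732 CPM (log2 fold change -0.72, SE 0.09, edgeR adjusted p = 1.07e-05) and RPS7 from 1214 and 1134 to 748 and 804 CPM (log2 fold change -0.60, SE 0.08, edgeR adjusted p = 3.14e-05). These genes have many processed pseudogenes, so reads may be split between copies. Of 75 tested mitochondrial ribosomal genes 25 were lower and 4 higher (MRPL10, MRPL46, MRPL49 and MRPS11), and 13 were lower without RSV+TCDD replicate 1 and 14 without TCDD replicate 1. Only 1 gene was higher without either TCDD library or RSV+TCDD replicate 1. In ribosome biogenesis 11 of 24 were lower (7 without TCDD replicate 2), among them UTP20, a factor for the small subunit, from 86.01 and 86.2 to 38.6 and 36.5 CPM (log2 fold change -1.20, SE 0.10, edgeR adjusted p = 1.69e-07), while the polymerase I factors RRN3 (0.68, SE 0.10) and UBTF (0.41, SE 0.12) were higher, UBTF not without TCDD replicate 1 or RSV+TCDD replicate 1. Proteasome genes had 6 lower and 3 higher of 34 (PSMD2, PSMD3 and PSMD4), below the shares called over all genes. Lower calls numbered 1 without RSV+TCDD replicate 1, 2 without TCDD replicate 1 and 3 without either other library. Leaving out RSV+TCDD replicate 1 left 1 increase, and leaving out TCDD replicate 1 left no increase.

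Many lysosomal genes rose relative to the median of all genes, but with spike-in scaling, tested against 0, 0 were called higher and 0 lower. Of 41 genes, all tested, 21 were higher and 1 lower (ASAH1, not called without RSV+TCDD replicate 1), with a median of 0.29, and 7 of the 15 V-ATPase subunits were among the 21 (4 without TCDD replicate 1 or RSV+TCDD replicate 2). CTSD, cathepsin D, had 221 and 239 CPM in the TCDD libraries and 467 and 445 CPM in the RSV+TCDD libraries (log2 fold change 0.99, SE 0.10, edgeR adjusted p = 6.00e-07). The proton pump subunits ATP6V1F (0.66, SE 0.09) and ATP6V0D1 (0.54, SE 0.10) rose as well. Of 17 tested autophagy genes 3 were higher (SQSTM1, MAP1LC3B and NBR1) and 1 lower (ATG3, not called without any 1 of the 4 libraries). The autophagy shares were 17.6% higher and 5.88% lower, beside 18.6% and 19.1% of all genes. SQSTM1, the p62 receptor that delivers cargo to autophagosomes, rose from 219.96 and 239 to 575 and 570.1 CPM (log2 fold change 1.32, SE 0.11, edgeR adjusted p = 1.54e-07). MAP1LC3B, the LC3 protein of their membrane, rose from 146 and 142 to 197 and 204 CPM (log2 fold change 0.48, SE 0.09, edgeR adjusted p = 4.46e-04).

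Interferon-stimulated genes rose in 17 of 32 tested cases and fell in 1 (MX1, not called without any 1 of the 4 libraries), with a median of 0.49, and 10 were higher without TCDD replicate 1 or RSV+TCDD replicate 2. With spike-in scaling, tested against 0, 2 members of this list were called higher and 0 lower. IRF7, a regulator of type I interferon, went from a very low level, from 0.181 and 0.368 to 2.74 and 2.26 CPM (log2 fold change 3.26, SE 0.46, edgeR adjusted p = 3.43e-05). IRF1 rose from 1.31 and 1.32 to 6.84 and 5.47 CPM (log2 fold change 2.22, SE 0.31, edgeR adjusted p = 3.51e-05). IFIT3, an antiviral effector, had 19.2 and 21.2 CPM in the TCDD libraries and 50.4 and 49.99 CPM in the RSV+TCDD libraries (log2 fold change 1.32, SE 0.15, edgeR adjusted p = 2.79e-06). OAS1, an RNA sensor, rose by 1.04, but was not called without TCDD replicate 1 (adjusted p = 0.0615, edgeR). Of 12 MHC class I genes 4 were higher (HLA-B, HLA-E, B2M and NLRC5) and 1 lower (TAP2, not called without TCDD replicate 2), and HLA-E rose from 111 and 108 to 172 and 177 CPM (log2 fold change 0.67, SE 0.09, edgeR adjusted p = 2.86e-05).

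Of 24 NF-κB and cytokine genes 17 were tested, 9 were higher and the other 8 were not called. RELB, a subunit of the non-canonical pathway, rose from 3.29 and 2.87 to 16.8 and 14.8 CPM (log2 fold change 2.34, SE 0.23, edgeR adjusted p = 9.59e-07). NFKBIE, an inhibitor of NF-κB, rose from 17.1 and 16.4 to 49.5 and 41.8 CPM (log2 fold change 1.45, SE 0.23, edgeR adjusted p = 4.05e-04). The cytokine IL11 had 1 and 0 counts with TCDD and 3.45 and 3.06 CPM with RSV+TCDD, at least 18.3-fold higher (edgeR adjusted p = 1.73e-06). Of 18 TGF-β genes 9 were higher and 2 lower (TGFBR1 and SMAD2), and both decreases were lost without TCDD replicate 1 or RSV+TCDD replicate 1. ID1, an inhibitor of helix-loop-helix factors, rose from 1.40 and 1.69 to 5.07 and 4.76 CPM (log2 fold change 1.69, SE 0.33, edgeR adjusted p = 8.71e-04).

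YAP/TEAD genes were mixed, with 5 of 22 tested genes higher (ANKRD1, AMOTL1, AMOTL2, NUAK2 and TEAD3; 3 higher without TCDD replicate 1) and 3 lower (WWTR1, TEAD4 and PTPN14). With all libraries the YAP/TEAD shares were 22.7% higher and 13.6% lower, beside 18.6% and 19.1% of all genes. AMOTL2, a feedback inhibitor of YAP, rose from 3.38 and 4.41 to 14.7 and 12.2 CPM (log2 fold change 1.81, SE 0.23, edgeR adjusted p = 2.20e-05). NUAK2, a kinase, rose from 1.31 and 1.47 to 5.83 and 4.62 CPM (log2 fold change 1.92, SE 0.30, edgeR adjusted p = 8.95e-05). ANKRD1 had 0 and 0 CPM in the TCDD libraries and 1.47 and 1.65 CPM in the RSV+TCDD libraries. In the extracellular matrix and integrin list 8 of 30 tested genes were higher (26.7%) and 6 lower (20%), beside 18.6% and 19.1% of all genes. One of the 8, the collagen COL1A1, is also a fibroblast marker, had 0.903 and 0.588 CPM in the TCDD libraries and 2.33 and 2.12 CPM in the RSV+TCDD libraries, and its part in the list's count was not tested. FN1 fell by a log2 fold change of -1.36 (SE 0.11), and the laminin chain LAMC1 fell from 853 and 871 to 499 and 462 CPM (log2 fold change -0.84, SE 0.09, edgeR adjusted p = 1.18e-06), while another, LAMA4, rose from 5.55 and 5.81 to 14.9 and 15.1 CPM (log2 fold change 1.41, SE 0.16, edgeR adjusted p = 3.50e-06). The integrins ITGA5, from 0.903 and 0.515 to 5.12 and 3.72 CPM (log2 fold change 2.55, SE 0.33, edgeR adjusted p = 1.66e-05), and ITGA3, from 2.03 and 1.69 to 10.5 and 8.43 CPM (log2 fold change 2.32, SE 0.27, edgeR adjusted p = 3.92e-06), rose from low levels, and ITGA9 fell from 334 and 321 to 224 and 204 CPM (log2 fold change -0.62, SE 0.09, edgeR adjusted p = 5.66e-05). Of 15 tested receptor tyrosine kinases 4 were higher (EPHA2, DDR1, DDR2 and PDGFRA) and 2 lower (MET and KIT). These shares, 26.7% and 13.3%, stand beside 18.6% and 19.1% of all genes. EPHA2 rose from 22.5 and 24.6 to 67.2 and 57.01 CPM (log2 fold change 1.40, SE 0.16, edgeR adjusted p = 7.37e-06). KIT, the receptor for stem cell factor, had 595 and 550.3 CPM in the TCDD libraries and 450.3 and 438 CPM in the RSV+TCDD libraries (log2 fold change -0.37, SE 0.09, edgeR adjusted p = 0.00475), a call lost without TCDD replicate 1, as was that of MET, and 4 receptors were called lower without RSV+TCDD replicate 1.

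Over all genes, the largest increases (called genes, with an average of 50 counts or more under RSV+TCDD) were in genes that TCDD-treated cells barely expressed. LINC00973, a long non-coding RNA on chromosome 3 from 98699902 to 98701940 on the plus strand (GENCODE, GRCh37), had 2 and 0 counts with TCDD and 16.3 and 13.9 CPM with RSV+TCDD, at least 84.8-fold higher (edgeR adjusted p = 1.12e-08). SLAMF7, a receptor of immune cells, lies on chromosome 1 from 160708847 to 160724611 on the plus strand and had 1 and 1 counts with TCDD against 14.1 and 14.2 CPM, at least 79.7-fold higher (edgeR adjusted p = 3.92e-09), while the immune markers PTPRC and CD3E stayed at or near 0. Both were also present with RSV alone, at 15.4 and 8.14 CPM of LINC00973 and 13.6 and 12.8 CPM of SLAMF7. FUT3, a fucosyltransferase, rose from 0.677 and 1.32 to 19.4 and 15.5 CPM (log2 fold change 4.21, SE 0.27, edgeR adjusted p = 7.82e-09). GPR116, an adhesion receptor, rose from 0.181 and 0.147 to 4.81 and 4.48 CPM (log2 fold change 4.73, SE 0.35, edgeR adjusted p = 3.03e-08). ARC, an early response gene, had 0.181 and 0.0735 CPM in the TCDD libraries and 22.8 and 18.5 CPM in the RSV+TCDD libraries, and its call was lost without TCDD replicate 1 (adjusted p = 0.0902, edgeR) and without TCDD replicate 2 (0.0649). EGR3, another early response gene, rose from 0.271 and 0.221 to 8.11 and 7.73 CPM, a call lost without TCDD replicate 1 (adjusted p = 0.0702, edgeR). SPNS2, a sphingolipid exporter, was at least 16.5-fold higher.

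The largest decreases were led by APOLD1, an endothelial early response gene, which had 585 and 553 CPM in the TCDD libraries and 58.2 and 81.98 CPM in the RSV+TCDD libraries (log2 fold change -3.02, SE 0.45, edgeR adjusted p = 0.00236). Its vehicle libraries differed widely, at 639.8 and 254 CPM. MFSD12, a lysosomal and melanosomal cysteine carrier on chromosome 19 from 3538259 to 3574288 on the minus strand, fell from 960.01 and 953 to 169 and 184 CPM (log2 fold change -2.44, SE 0.33, edgeR adjusted p = 0.00125). It had 372 and 180.4 CPM with vehicle and 209 and 150.1 CPM with RSV. PIF1, a DNA helicase, fell from 11.6 and 14.5 to 2.58 and 1.65 CPM (log2 fold change -2.61, SE 0.23, edgeR adjusted p = 1.87e-07). FGF14, which binds sodium channels, fell from 13.5 and 12.3 to 2.13 and 2.92 CPM (log2 fold change -2.35, SE 0.22, edgeR adjusted p = 4.04e-07). RNASE1 and the non-coding RNA RP11-726G1.1 were among the 10 largest decreases as well as among the 24 genes with an interaction. The 20 genes were chosen among called genes whose groups did not overlap, which held for all 6057 called genes.

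**Figure D4:**
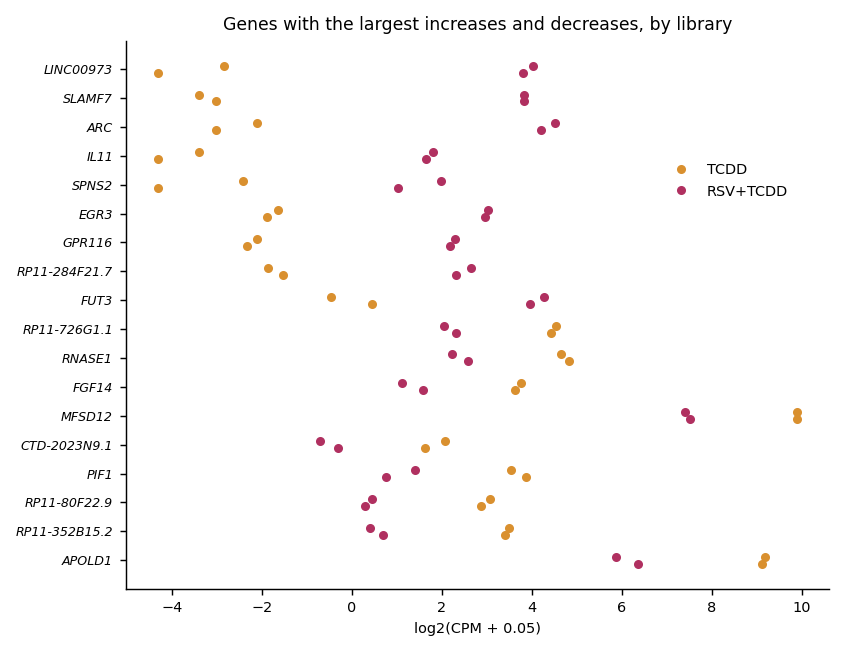
Level of 9 of the 10 largest increases and 9 of the 10 largest decreases in each library of TCDD and RSV+TCDD, as log2(CPM + 0.05) with TMM scaling (horizontal axis), 2 points per group and gene. The increases start from levels at or near 0 with TCDD, as for LINC00973 with 0.0903 and 0 CPM, while MFSD12 falls from 960.01 and 953 to 169 and 184 CPM.

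RSV changed TCDD-treated cells much as it changed cells without TCDD. RSV against vehicle, which shares no library with RSV+TCDD against TCDD, called 3295 genes higher (20.5%) and 3243 lower (20.2%). Of the 6057 genes called with TCDD, 4590 were also called without it, which is 75.8% of the former and 70.2% of the latter calls, and 4574 of them had the same direction. As a description over 16080 genes, which are no replicates of each other, Pearson's r between both sets of log2 fold changes was 0.79 and Spearman's rho 0.79. The pigment and mitotic decreases were present in both settings. TYRP1 was at -1.55 without TCDD and -1.50 with it, PLK1 at -1.72 and -2.26, and MYC at -2.12 and -1.94. DUSP6 and MFSD12 had larger changes with TCDD, 1.58 against 0.72 and -2.44 against -0.62, but their interactions were not called (edgeR adjusted p = 0.125 and 0.327).

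**Figure D5:**
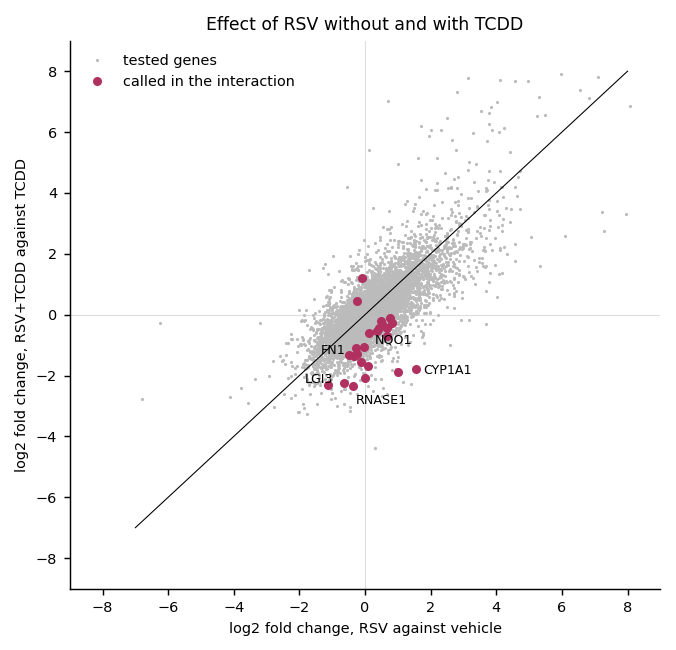
Log2 fold change of RSV+TCDD against TCDD (vertical axis) and of RSV against vehicle (horizontal axis) for the 16080 tested genes (grey) and the 24 genes called in the interaction (red), with the line of equal effects. CYP1A1 lies furthest below the line among the called genes, at 1.55 without and -1.77 with TCDD.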

How the data were processed

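The authors prepared strand-specific poly(A) libraries from 12 samples of 501Mel cells, 2 in each of 6 groups, aligned the reads to hg19 with STAR 2.4.0a and counted them per gene with featureCounts of Subread 1.5.0-p3, tools named in the submitters' processing notes. The deposited values are raw counts for 56638 genes, besides 96 control sequences (92 ERCC RNAs among them). Between 0.0310% and 0.0936% of the counts lay on the control sequences, which were left out of library sizes and tests. The annotation release is not given in the sources used here. The methods give a forward-strand counting setting, whereas this kit usually yields reverse-strand reads. In all 12 pairs of an abundant coding gene and an antisense lncRNA with at least 50% of its exon bases inside that gene's exons, the coding gene held more counts (antisense share 0.00477% in the median pair and 11.4% at most), so the counts follow the coding strand.

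Groups were taken from the sample titles. Genes were filtered with filterByExpr, scaled with TMM factors and tested with edgeR 4.0.16 in R 4.3.3 (robust glmQLFit, glmQLFTest, two-sided, Benjamini-Hochberg over 16080 genes), with 1 term per group over all 12 libraries. The contrasts were RSV+TCDD against TCDD, RSV against vehicle and their difference. The common biological coefficient of variation was 0.0915. DESeq2 1.42.0, other scalings, filters and thresholds, a replicate block and leaving out single libraries were tried as alternatives, and the fitting was tested on simulated data.

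The comparison and the gene lists were chosen with earlier results of these data known, while the libraries in each group follow from the titles. Named genes are, in each list and role, up to 2 called members with the largest change in each direction, an average of 50 counts or more in the group where they were higher, a fixed set of 24 genes, the 10 largest increases and 10 largest decreases, and up to 12 genes called in the interaction. Other called members were named after their values were seen, where 5 or fewer were called. A fold against a group at or under 3 counts in each library was computed against 3 counts per library and is a lower bound. Positions are from GENCODE on GRCh37, and promoters are from RefSeq on GRCh38.p14, matched by symbol or synonym. No coordinate was converted. Some genes that this rule names are not reported here.

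The replicate numbers in the titles are not stated to mark a shared culture or day, and the difference between replicates 1 and 2 correlated across genes between groups at -0.121 to 0.155 (15 comparisons of groups, 3 of them above 0.1, all among the groups given RSV). Over the 11953 genes with a mean count above 50 this correlation ran from -0.366 (RSV with TCDD) to 0.427. Among the groups given RSV it was 0.312 to 0.427, and its source was not tested. Replicates were not treated as pairs in the main fit, and a replicate block was tried as an alternative. The differences between replicates of TCDD and RSV+TCDD had a correlation of -0.0607 over 16080 genes and of -0.299 over the 11953 genes with a mean count above 50. Both replicates of a group differed beyond counting noise (chi-square divided by its degrees of freedom, 4.61 for TCDD and 8.99 for RSV+TCDD).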

Additional observations from a re-analysis of the deposited data

Results flagged for a closer look

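The 12 genes of this section were named because they were called in the interaction, and at most 12 were taken, so their number is no result. In them the effect of RSV in TCDD-treated cells differed from that in cells without TCDD. Values are the interaction term of the model on the log2 scale, with edgeR adjusted p-values. The interaction was negative in CYP1A1 (-3.324, adjusted p = 1.495e-09), YWHAH (-1.064, 0.0004655) and NQO1 (-1.028, 0.0009184), which kept their calls without any single library. It was also negative in RNASE1 (-1.951, adjusted p = 0.01006), LGI3 (-1.611, 0.01006), RP11-1220K2.2 (-2.089, 0.01192), FN1 (-1.016, 0.01192), TMEM2 (-0.849, 0.01192), ARMC9 (-0.9073, 0.01792), CSRP2 (-0.8599, 0.01888) and LUM (-1.425, 0.02151) by edgeR. It was positive in a long non-coding RNA (1.298, edgeR adjusted p = 0.02151). With spike-in scaling 1 of these 12 calls remained, tested against 0 on that scale, where the median interaction of all genes was -0.52. Calls relative to that median were not tested. The TCDD dose of the RSV+TCDD libraries, 1 nM in the sample label and 10 nM in the protocol, cannot be told apart from the effect of RSV in any of them.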

How the results depend on the processing

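With 2 libraries per group and no statement on separate cultures, the calls rest on a spread shared over the 6 groups, and after leaving out 1 library the lone library of its group is assumed to vary like the others. Scaling to the spike-ins left 160 genes called higher and 1752 lower in RSV+TCDD against TCDD, 256 and 113 in RSV against vehicle and 1 in the interaction, and moved the median of all genes by -0.70, -0.17 and -0.52. Spike-in shares also differed between replicates, at 0.0316% and 0.0310% with vehicle and 0.0349% and 0.0413% with RSV. They were 0.0401% and 0.0457% with TCDD and 0.0630% and 0.0936% with RSV+TCDD. How far that spread, rather than the shift, lowered the counts was not tested. Requiring a log2 fold change of at least 1 left 1029 and 508, 1189 and 481, and 15. The interaction count was 77 with DESeq2, 170 with no filter, 15 with at least 10 counts in every library and 7 with only the libraries compared. Leaving out single libraries gave 1672 to 2458 genes called higher and 1854 to 2569 lower in RSV+TCDD against TCDD, with the fewest without TCDD replicate 1. It gave 2331 to 2962 higher and 2311 to 2881 lower in RSV against vehicle. In the interaction it gave 4, without TCDD replicate 1, to 179, without vehicle replicate 2, and 7 to 14 without TCDD replicate 2 or either RSV+TCDD library. Relative to all genes, with at least 10 counts in every library the list medians of the resistance genes (-0.28), hypoxia targets (0.048) and receptor tyrosine kinases (-0.086) turned, where fewer genes were tested, and that of the resistance genes ran from -0.0076 without TCDD replicate 2 to 0.37 without RSV+TCDD replicate 2. The cause of the other changes was not tested.

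The fit with the replicate number as a block called 3047 genes higher and 3168 lower in RSV+TCDD against TCDD, 3363 and 3330 in RSV against vehicle and 30 in the interaction. The crossed pairing of TCDD and RSV+TCDD, chosen after seeing the data, called 2887 and 2947. Levels listed at 0 are limited by depth.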
